A study of Mus musculus with 18 samples.

Results

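The keratins and biliary progenitor markers described here are 9 genes: *Krt7*, *Krt8*, *Krt18*, *Krt19*, *Epcam*, *Sox9*, *Cd24a*, *Prom1* and *Cldn4*. They were chosen by symbol, and all 9 were found among the 28442 genes of the deposited table. Their levels were compared between 6 non-tumoral livers and 12 advanced tumors of *Alb-R26Met* mice, and from tumor to tumor. All mice of both groups carried *Alb-Cre* and *R26stopMet*, that is, Cre recombinase under the albumin promoter and a mouse-human chimeric *Met* transgene at the *Rosa26* locus that Cre turns on. All were untreated F1 males of C57BL/6JRj and 129S2/SvPasOrlRj parents, so livers without the transgene were no part of the comparison. Livers came from mice that had not developed tumors and were 52 to 71 weeks old (median 56.5). Tumors came from mice 49 to 72 weeks old (median 65). Tumors 11 and 12 were taken from 1 animal, so the 18 samples stand for 17 mice. Sample names also carry a tag, E19 (2 livers and 7 tumors) or E20 (4 livers and 5 tumors), whose meaning is not given in the sources used here.

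Keratins 8 and 18 are the intermediate filament proteins of hepatocytes. Every keratin filament pairs a type II protein (Krt7, Krt8) with a type I protein (Krt18, Krt19). Cholangiocytes, the cells that line bile ducts, add keratins 7 and 19, and are known for Epcam, Sox9, Cd24a, Prom1 and Cldn4, which also mark the progenitor-like ductular cells that appear in injured liver. Some liver tumors are known to express such biliary and progenitor genes. The comparison asks which of these genes *Alb-R26Met* tumors express above the livers of tumor-free mice of the same genotype, and how far tumors differ from each other.

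Values are TPM, a measure of transcript abundance relative to the whole library and corrected for transcript length, deposited as whole numbers, so a gene under 0.5 TPM is listed at 0. Totals ranged from 835144 to 907513 TPM per sample, and TPM do not keep the number of reads behind a value. For tests, values were scaled between samples by a trimmed mean of M values, and log2(scaled TPM + 1) was fitted with limma across the 11452 genes that reached 1 scaled TPM in 6 or more samples, with Benjamini-Hochberg adjustment over all of them. On this scale the change of a low gene is understated. Samples stood apart in both groups. In tumor 2, *Siglece* took 82.9% of all TPM, against 17.9% to 53.4% in the other samples, so that 1 TPM there became 5.24 on the scaled values, against 0.713 to 1.24 elsewhere. Liver 1 was the highest liver for 27.2% of the genes tested, against 9.54% to 23.3% for the other livers. Ties went to the liver with the lowest number, so genes at 0 in all livers count for liver 1 and its share is overstated. Results that rest on these samples are given with and without them. Hepatocyte genes were present in every sample, the albumin gene *Alb* at 6050 TPM or more.

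Among the 9 genes, *Krt8*, *Krt18*, *Prom1* and *Cd24a* were higher in tumors, *Sox9* did not pass the test, and *Krt7*, *Krt19*, *Epcam* and *Cldn4* were too low to be tested. Of the 5 genes tested, 4 were thus called higher at an adjusted p under 0.05 and 0 lower, where 9.95% of all genes tested were called higher and 19.1% were called in either direction. *Prom1* and *Cd24a* reached the filter through the tumors, so this count describes the genes tested and does not stand for all 9. The count was 4 of 5 also with liver 1 and tumor 2 both left out, where 3578 of 11329 genes were called in either direction. It was 2, *Prom1* and *Cd24a*, without any scaling between samples, where 1341 of 13309 genes were called. Without scaling it was 4 again once tumor 2 was left out, where 2497 of 13301 genes were called. It was also 2 without liver 2 or without liver 5, which lost *Krt8* and *Cd24a*. There 1651 of 11370 and 1945 of 11323 genes were called. In bulk tissue, more cells of a type and more RNA per cell cannot be told apart.

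**Figure D1:**
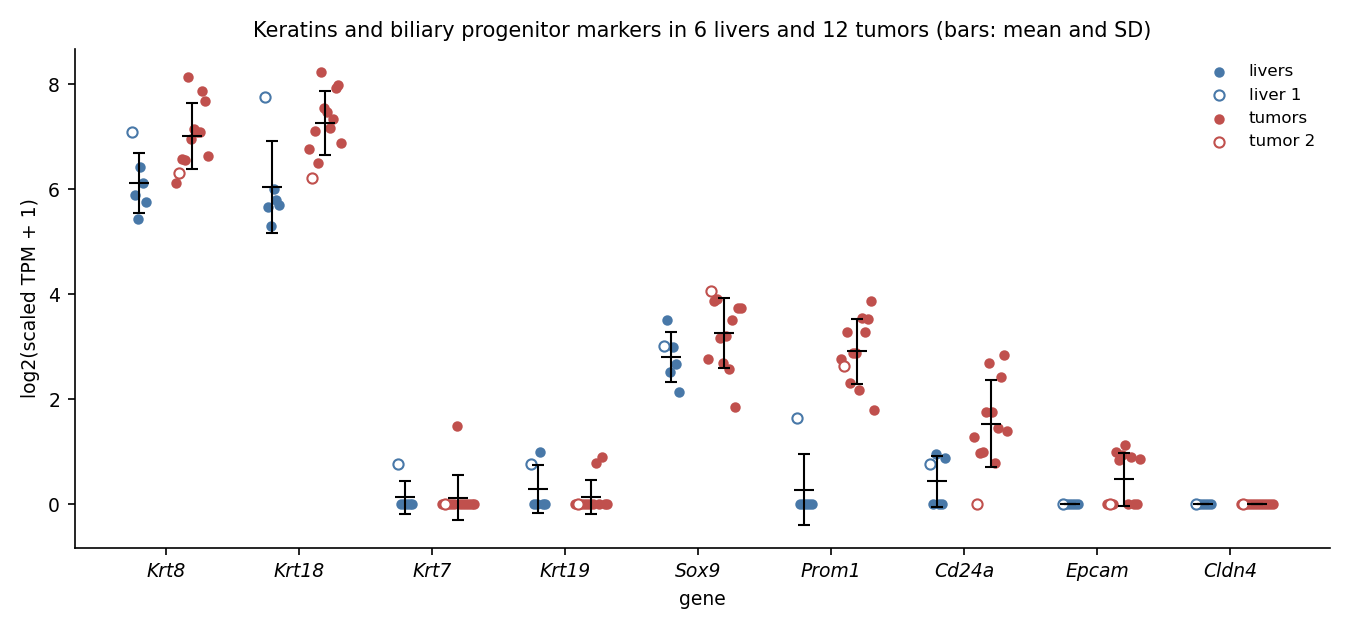
Each point is a sample, with log2(scaled TPM + 1) on the vertical axis and the 9 genes along the horizontal axis, livers on the left of each pair and tumors on the right; lines give the mean and SD of 6 livers and 12 tumors. *Krt8* and *Krt18* lie far above the other genes in both groups, *Prom1* separates the groups, and open circles mark liver 1 and tumor 2.

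*Krt8* and *Krt18* were the abundant genes of the group. *Krt8* (chr15:101996711-102004342 on GRCm38.p6, as all positions here, minus strand) encodes the type II keratin of hepatocytes. It stood at 45 to 189 TPM in livers (median 63.5) and at 15 to 352 TPM in tumors (median 128). The highest liver was liver 1 (189 TPM, the others 45 to 86), and the lowest tumor was tumor 2 (15 TPM, the others 94 to 352), so the groups overlapped. After scaling, 6 of 12 tumors exceeded all 6 livers, and 10 exceeded all livers but liver 1. The log2 fold change was 0.90 (SE 0.29), or 1.86-fold, with a limma adjusted p of 0.0325. An exact permutation test, two-sided and unadjusted, gave p = 0.0100.

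*Krt18* (chr15:102028216-102032026, plus strand) encodes its type I partner. It ranged from 41 to 304 TPM in livers (median 56.5) and from 14 to 378 TPM in tumors (median 168). Liver 1, at 304 TPM, exceeded all but 1 tumor (tumor 5, 378 TPM), while the other 5 livers lay between 41 and 64 TPM. After scaling, all 12 tumors exceeded those 5 livers, and 3 exceeded liver 1 too. The log2 fold change was 1.22 (SE 0.33), or 2.33-fold, with an adjusted p of 0.0112 by limma and p = 0.00426 by the exact permutation test. Without liver 1 it was 1.57 (SE 0.27, adjusted p = 0.000372).

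Neither keratin call held under every setting. Without scaling, the log2 fold change of *Krt8* was 0.70 (adjusted p = 0.422) and that of *Krt18* 1.03 (adjusted p = 0.231). With tumor 2 also left out they were 0.97 (adjusted p = 0.0294) and 1.33 (adjusted p = 0.00968). *Krt8* also lost its call with the tag as a covariate (adjusted p = 0.0508), without liver 2, 3, 5 or 6 (adjusted p of 0.0562 to 0.102) and without tumor 11 (adjusted p = 0.0529), whereas *Krt18* kept its call with each of the 18 samples left out in turn. Within the E19 samples, *Krt8* differed by 1.03 (adjusted p = 0.136) and *Krt18* by 1.61 (adjusted p = 0.0305). Within the E20 samples, *Krt8* differed by 0.58 (adjusted p = 0.420) and *Krt18* by 0.80 (adjusted p = 0.405). RefSeq also annotates a pseudogene of *Krt8*, to which reads could be shared.

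Both genes lie on chromosome 15 with 23873 bases between them. Their upstream sequences are shown because both genes rose, and those of *Prom1* because it had the largest difference of the group. Each is the 250 bases before a RefSeq start on GRCm38.p6, written on the strand of the gene, *Krt8* from chr15:102004343-102004592, *Krt18* from chr15:102027966-102028215, and *Prom1* from chr5:44101737-44101986 (start 1) and chr5:44094769-44095018 (start 2). Capitals mark matches to motifs searched on both strands: AP-1 TGANTCA, TEAD GGAATG, RBPJ GTGGGAA, Sox AACAAT, Sp/KLF GGGCGG and ETS CCGGAA.
Krt8: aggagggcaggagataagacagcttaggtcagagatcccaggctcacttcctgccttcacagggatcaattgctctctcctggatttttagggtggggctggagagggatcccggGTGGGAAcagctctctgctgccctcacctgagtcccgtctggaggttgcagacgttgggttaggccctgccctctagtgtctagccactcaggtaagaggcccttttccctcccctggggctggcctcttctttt
Krt18: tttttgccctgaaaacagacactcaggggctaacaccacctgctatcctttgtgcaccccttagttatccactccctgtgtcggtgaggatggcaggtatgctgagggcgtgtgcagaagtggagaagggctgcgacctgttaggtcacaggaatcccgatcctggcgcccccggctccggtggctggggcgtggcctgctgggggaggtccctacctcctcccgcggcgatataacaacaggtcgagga
Prom1 start 1: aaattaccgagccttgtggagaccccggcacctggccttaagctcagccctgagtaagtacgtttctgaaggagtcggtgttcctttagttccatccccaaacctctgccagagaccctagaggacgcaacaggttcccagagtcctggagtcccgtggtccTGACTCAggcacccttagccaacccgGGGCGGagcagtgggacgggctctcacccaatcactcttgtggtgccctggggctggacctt
Prom1 start 2: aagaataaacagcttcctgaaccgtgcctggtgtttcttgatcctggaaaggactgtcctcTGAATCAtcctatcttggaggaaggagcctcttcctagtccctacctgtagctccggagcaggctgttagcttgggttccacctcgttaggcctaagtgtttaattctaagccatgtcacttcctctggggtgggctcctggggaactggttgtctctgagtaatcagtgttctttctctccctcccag
*Krt8* held 1 match, to RBPJ, 135 bases before its start, and *Krt18* held none. Both *Prom1* windows lie inside the annotated gene (chr5:43993621-44102047, minus strand), downstream of its outermost end. Both held an AP-1 match, 88 and 189 bases before their starts, and start 1 also an Sp/KLF match 62 bases before it. The RBPJ motif was found in 5.42% of all 32851 such windows, the AP-1 motif in 6.75% and the Sp/KLF motif in 32.7%. GC content was 58% for *Krt8*, 60.4% for *Krt18*, and 59.2% and 50.8% for *Prom1*, against a median of 52.4% over all windows. None of the marked matches overlapped another. Among the other members, the table held *Krt7* (4 Sp/KLF matches), *Epcam* (1 Sp/KLF match) and *Cldn4* (2 AP-1 matches and 1 Sp/KLF match). It held 6 of the 9 members in all. Such matches describe the letters of these windows and are not evidence of binding.

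The biliary keratins *Krt7* and *Krt19* stayed at the limit of the table in both groups. *Krt7* (chr15:101412403-101427806) was listed at 1 TPM in liver 1, at 2 TPM in tumor 6 and at 0 in the other 16 samples. *Krt19* (chr11:100140810-100145926) was listed at 1 TPM in livers 1 and 4 and in tumors 8 and 10, and at 0 in the other 14. Neither reached the level needed for the limma test, and the exact permutation test gave p = 1 for *Krt7* and p = 0.407 for *Krt19*. At this level a difference of less than about 1 TPM was not detectable.

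Keratins were also compared within each sample, as ratios of deposited TPM + 1. Such a ratio needs no scaling where both genes are far above 1 TPM, as *Krt8* and *Krt18* were. The *Krt8* to *Krt18* ratio was above 1 in 5 of 6 livers and below 1 in 10 of 12 tumors. It ranged from 0.623 (liver 1) to 1.34 in livers and from 0.640 to 1.07 in tumors, with geometric means of 1.06 and 0.842. The mean log2 ratio was 0.33 lower in tumors (-0.25 ± 0.24, SD, n = 12, against 0.08 ± 0.39, n = 6). The exact permutation test gave p = 0.0454, or 0.0605 after adjustment over the 4 ratios tested, which did not pass 0.05. Without liver 1, whose ratio was the lowest of all 18 samples, the other 5 livers spanned 1.05 to 1.34 and the unadjusted exact p was 0.00129. The unadjusted p rose to between 0.0560 and 0.118 when liver 2, 3, 4, 5 or 6, or tumor 1, 3, 6, 7, 9, 11 or 12, was left out. Within the E19 samples the ratio differed by -0.59 (exact p = 0.0278) and within the E20 samples by -0.23 (exact p = 0.373). The ratio of type II to type I keratins, *Krt7* and *Krt8* over *Krt18* and *Krt19*, gave the same picture (-0.32, exact p = 0.0453, adjusted p = 0.0605), since *Krt7* and *Krt19* add at most 2 TPM.

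**Figure D2:**
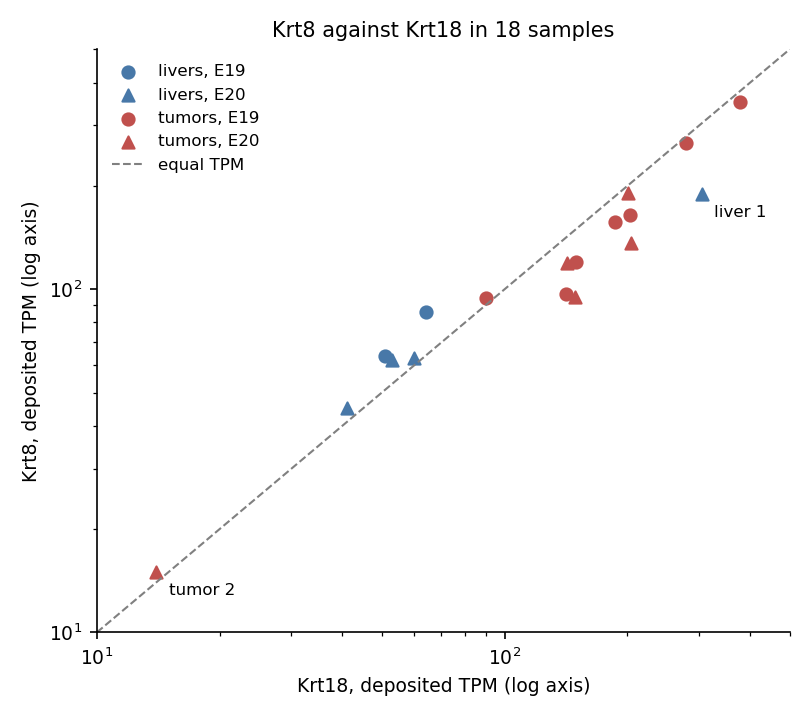
Deposited TPM of *Krt18* (horizontal) and *Krt8* (vertical), both on log axes, with 1 point per sample, colors for livers and tumors, shapes for the tags and a dashed line at equal TPM. Livers other than liver 1 lie above the line and 10 of 12 tumors below it, and liver 1 lies among the tumors.

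The ratio of *Krt19* to *Krt18* was lower in tumors by 1.19 on the log2 scale (exact p = 0.0327, adjusted p = 0.0605), with an unadjusted exact p of 0.0503 to 0.0797 without liver 2, 3, 4, 5 or 6. That p was 0.0124 without liver 1, 0.000727 without tumor 2 and 0.000229 without both. Since *Krt19* was at 0 or 1 TPM throughout, this ratio follows the deposited level of *Krt18* and is not free of scaling. The ratio of *Krt7* to *Krt8*, which in the same way follows the deposited level of *Krt8*, differed by -0.73 (exact p = 0.163, adjusted p = 0.163). Its unadjusted exact p was 0.0130 without tumor 2, where *Krt8* was at 15 TPM. Of the 50 other keratin genes in the table, 47 were listed at 0 in all 18 samples, and *Krt5* reached 1 TPM. The remaining 2, the simple epithelial keratins *Krt20* and *Krt23*, were at 0 in all livers and reached 10 and 17 TPM in tumors. Their log2 fold changes were 1.23 (SE 0.44, adjusted p = 0.0520) and 1.11 (SE 0.42, adjusted p = 0.0686). Both passed 0.05 once tumor 2 was left out. These 2 were named after their values were seen.

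*Prom1* had the largest difference of the group. Its product, prominin-1 or CD133, is a membrane protein with 5 membrane-spanning segments, used as a marker of ductal and progenitor cells. *Prom1* (chr5:43993621-44102047) was listed at 0 in 5 livers and at 3 TPM in liver 1. It was above 0 in all 12 tumors, from 1 TPM in tumor 2 to 15 TPM in tumor 8 (median 8), and at 3 TPM in tumors 7 and 12. After scaling every tumor exceeded every liver, which held for 2.35% of all genes tested. On the deposited TPM, tumor 2 was below liver 1, and tumors 7 and 12 equalled it. The log2 fold change was 2.64 (SE 0.30, adjusted p = 2.08e-06), which ranked 88 of 11452 by p. The exact permutation test gave 5.39e-05, the smallest p it can give. The call was kept in every setting tried, among them the E19 samples (3.05, adjusted p = 0.00297) and the E20 samples (2.31, adjusted p = 0.0106). Since 5 livers were listed at 0, no fold is given.

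*Cd24a* (chr10:43579169-43584265) encodes a small glycoprotein anchored in the cell membrane. It was at 0 in livers 2, 4 and 5 and at 1 TPM in livers 1, 3 and 6. In tumors it ranged from 0 in tumor 2 to 6 TPM in tumor 6 (median 2), with 5 TPM in tumors 10 and 11. After scaling, 10 of 12 tumors exceeded all 6 livers. On the deposited TPM 8 did, with tumors 3, 4 and 8 at 1 TPM like livers 1, 3 and 6. The log2 fold change was 1.10 (SE 0.35, adjusted p = 0.0301), with an exact permutation p of 0.00948. The call was lost without liver 2, 4 or 5, the livers at 0 (adjusted p of 0.0706 to 0.0796). Within the E19 samples the difference was 1.75 (adjusted p = 0.0370), and within the E20 samples 0.58 (adjusted p = 0.586).

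*Sox9* (chr11:112782210-112787757), which encodes a transcription factor of the biliary lineage, was above 0 in every sample. It ranged from 4 to 11 TPM in livers (median 6) and from 3 to 15 TPM in tumors (median 9). After scaling, 6 tumors lay above all livers and 1, tumor 10, below all of them. The highest of these was tumor 2, at 3 TPM as deposited and 15.7 scaled TPM. On the deposited TPM, tumors 3, 4, 9 and 12 (12 to 15 TPM) lay above all livers, and tumors 2 and 10 (3 TPM) below all. The log2 fold change was 0.45 (SE 0.29, adjusted p = 0.303), with an exact permutation p of 0.160 (0.0440 without tumor 10, 0.229 without tumor 2). Its call did not change in any of the limma settings tried.

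*Epcam* and *Cldn4*, an epithelial adhesion molecule and a tight junction protein, were at or near 0. *Epcam* (chr17:87635979-87651127) was listed at 0 in all 6 livers, at 1 TPM in tumors 4, 5, 6, 7, 9 and 12, and at 0 in the other 6 tumors. The exact permutation test gave p = 0.0821. It gave 0.0427 when any single tumor listed at 0 was left out. *Cldn4* (chr5:134945123-134946934) was listed at 0 in all 18 samples.

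On scaled TPM, which allow levels of different genes to be set side by side, the order in tumors was *Krt18* (166 ± 70.0, SD, n = 12), *Krt8* (141 ± 65.9), *Sox9* (9.47 ± 4.21), *Prom1* (7.18 ± 3.35), *Cd24a* (2.36 ± 1.96) and *Epcam* (0.465 ± 0.495). *Krt18* and *Krt8*, and *Sox9* and *Prom1*, differed by less than their SD, whereas a wide gap lay between the hepatocyte keratins and all others. In livers *Krt18* (79.0 ± 67.9, n = 6) and *Krt8* (73.8 ± 33.2) could not be ordered beyond their spread, and without liver 1 *Krt8* stood at 61.6 ± 16.2 and *Krt18* at 51.5 ± 8.91 (n = 5). *Sox9* (6.31 ± 2.42) came next, followed by *Cd24a* (0.418 ± 0.463) and *Prom1* (0.356 ± 0.873), which could not be ordered either.

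**Figure D3:**
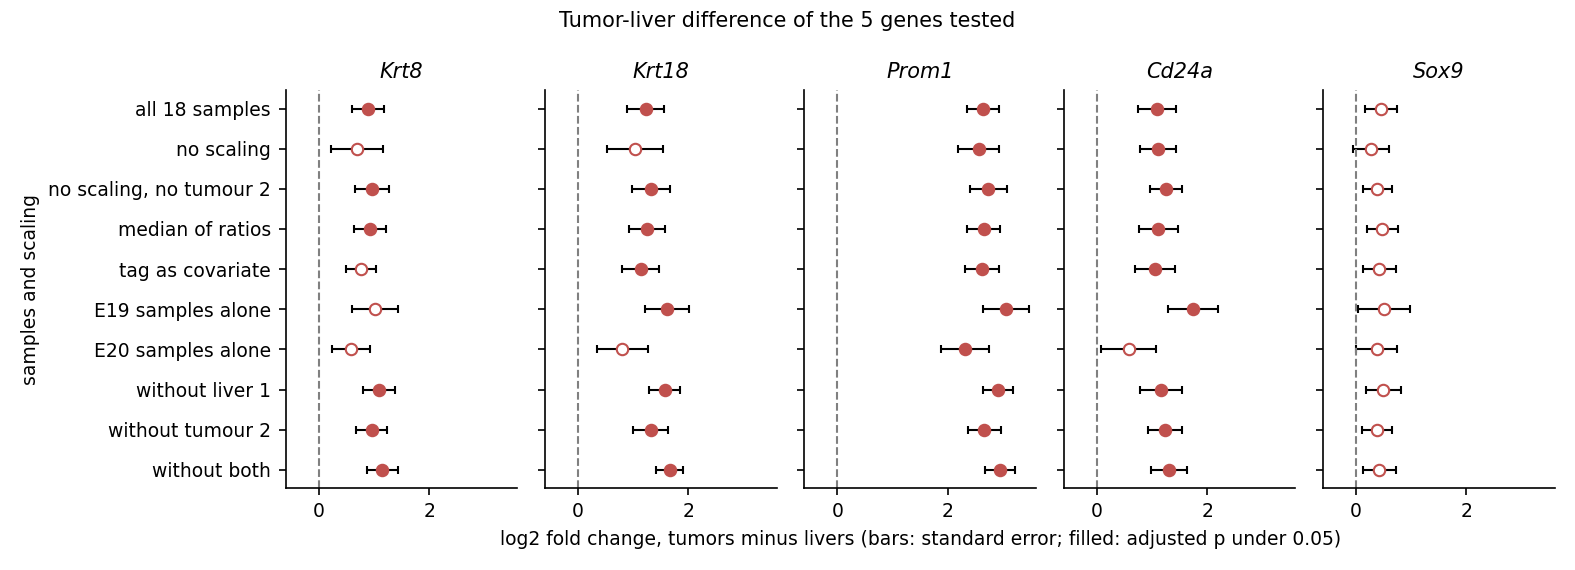
Log2 fold change between tumors and livers (horizontal, log2(scaled TPM + 1) scale) of the 5 genes tested under 10 choices of samples and scaling (vertical), with bars for the standard error and filled points where the adjusted p was under 0.05. *Prom1* is filled in all 10, *Sox9* in none, and *Krt8* is open without scaling, with the tag as a covariate and within each tag.

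The tag was compared within tumors, because it splits both groups. Between E20 and E19 tumors 12.3% of 10769 genes tested were called by limma (1320 genes, but 115 of 12203 without scaling), and none of the 5 members, of which only *Krt8* had an unadjusted p under 0.05 (0.0400). *Krt8* was lower by 0.68 in the E20 tumors (SE 0.30, adjusted p = 0.138), from a mean of 101 ± 28.6 scaled TPM (SD, n = 5) against 169 ± 71.8 (n = 7). *Krt18* was lower by 0.60 (SE 0.30, adjusted p = 0.191). For *Prom1*, *Cd24a* and *Sox9* the differences were -0.33, -0.51 and -0.16, with adjusted p of 0.507, 0.427 and 0.788. In the limma fit of tag and tissue together, no gene of 11452 differed between tags in its tumor-liver difference at an adjusted p under 0.05 (334 at an unadjusted p under 0.05), and the members' adjusted p were 0.953 or above.

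The spread between tumors was widest for *Cd24a*, with an SD of 0.83 on the log2 scale, above that of 89.0% of all genes tested. *Sox9* had an SD of 0.67, *Krt8* 0.63, *Prom1* 0.62 and *Krt18* 0.61, which lay above 77.0%, 72.1%, 71.4% and 70.9% of genes. In livers, *Krt18* had an SD of 0.87, above that of 96.3% of genes, with liver 1 included.

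Correlations across the 12 tumors were computed for the 10 pairs of the 5 genes. *Krt8* and *Krt18* went together (Pearson's r = 0.92, permutation adjusted p = 3.00e-04; Spearman's rho = 0.92, adjusted p = 5.00e-04). Without tumors 1 and 5, the farthest from the median of *Krt8*, r was 0.92, and within the 7 E19 tumors it was 0.95. The 5 E20 tumors were too few for an r of their own. *Krt18* and *Cd24a* had r = 0.80 (permutation adjusted p = 0.0109) and rho = 0.84 (adjusted p = 0.00620), with r = 0.77 within the E19 tumors and r = 0.81 without tumors 2 and 5. Without tumor 2 alone, where both genes were lowest, r was 0.71 and its permutation adjusted p 0.0802, with rho = 0.79 (adjusted p = 0.0266). *Krt8* and *Cd24a* passed by rho (0.70, permutation adjusted p = 0.0464) but not by r (0.64, adjusted p = 0.0892, or 0.0470 without tumor 5 and 0.0372 without tumor 6). By rho this pair did not pass with tumors 11 and 12 averaged (0.61, permutation adjusted p = 0.133), centered on the tag (0.57, adjusted p = 0.118) or without scaling (adjusted p = 0.0824). With 1 tumor left out it passed by rho only without tumor 6 (permutation adjusted p = 0.0150) or tumor 8 (0.0179), and without any other tumor the adjusted p was 0.0556 to 0.125.

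**Figure D4:**
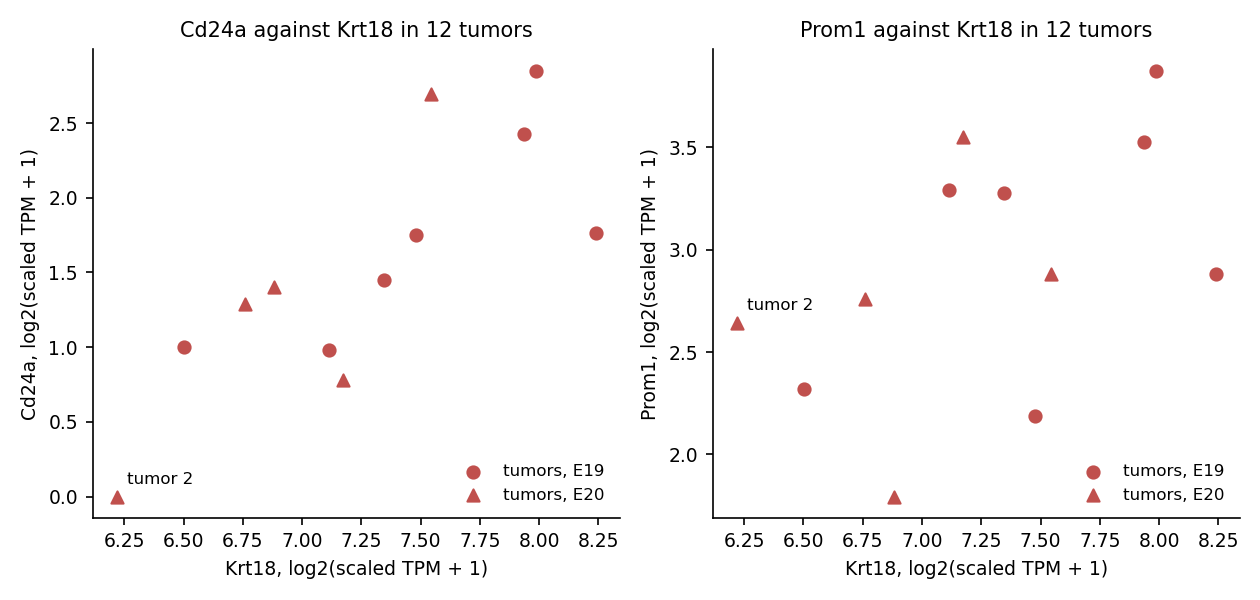
Log2(scaled TPM + 1) of *Cd24a* (left) and *Prom1* (right) against that of *Krt18* in the 12 tumors, with shapes for the tags. *Cd24a* climbs with *Krt18* (r = 0.80), with tumor 2 at the lower end, where *Cd24a* was listed at 0 and its true level is not known. *Prom1* is spread more loosely (r = 0.49).

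On scaled values *Prom1* did not pass with any other member. Its r was 0.49 with *Krt18* (permutation adjusted p = 0.217), 0.46 with *Krt8* (adjusted p = 0.217) and 0.32 with *Cd24a* (adjusted p = 0.306). On unscaled values it passed by r with *Krt8* (0.76, permutation adjusted p = 0.0122) and *Krt18* (0.78, adjusted p = 0.0118). By rho neither pair passed there (permutation adjusted p of 0.0607 and 0.112). *Sox9* had a negative r with each of the other 4, from -0.33 with *Prom1* to -0.47 with *Krt18*, none of which passed (permutation adjusted p of 0.217 to 0.306). Without scaling, the signs of *Sox9* turned with *Krt8* (0.26), *Krt18* (0.30) and *Prom1* (0.14). All points of these pairs share their libraries and scaling factors.

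Likeness to each member was described by Spearman's rho over the 12 tumors against up to 6825 genes, with no test. *Krt8* was most like *Atp1b3* (rho = 0.93), *Krt18* (0.92) and *Gipc1* (0.92). *Krt18* was most like *Atp1b3* (0.98), a subunit of the sodium pump, *Tnfrsf12a* (0.94), the receptor of the cytokine TWEAK, and *Tpm4* (0.93), a tropomyosin, with *Krt8* in rank 4. The gene most like *Cd24a* was *Lcn2* (0.94), which encodes the secreted protein lipocalin-2, and *Krt18* was in rank 15. For *Prom1* they were *Spop* (0.83), *Serpinh1* (0.81) and *Anxa4* (0.80), with lower values than for the other members. For *Sox9* they were *Ctsl* (0.94), *Fgg* (0.93) and *Mup18* (0.88), the last 2 of which are hepatocyte genes for secreted proteins. Of these genes, *Lcn2* was itself 3.43 higher in tumors on the log2 scale (adjusted p = 0.000165) and *Tnfrsf12a* 2.85 higher (adjusted p = 9.87e-06), by limma.

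Related genes were taken from 7 lists and read against all genes tested, whose median log2 fold change was -0.06 and of which 9.95% were called higher and 19.1% in either direction. Genes at or near 0 in livers passed the filter through tumors alone, so the counts are descriptions. Of 17 keratin partners and other filament genes, 14 were tested, 3 were higher and 1 lower, with a median of 0.31, beside 9.95% of all genes higher and 19.1% called. The higher ones were *Lmna* of the nuclear lamina (1.54, SE 0.32, adjusted p = 0.00167), *Ppl*, a linker of filaments to junctions (1.01), and *Dsc2*, a desmosomal cadherin (0.81). *Des*, the muscle and stellate cell filament desmin, was lower (-0.61). Desmoplakin (*Dsp*), which anchors keratins to desmosomes, differed by 0.34 (adjusted p = 0.238) and was named after its value was seen. Without scaling, 0 of 15 tested were called in this list, beside 1341 of all 13309 genes. With tumor 2 also left out 3 were higher again, beside 1446 of 13301 genes.

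Beside *Cldn4*, 22 other claudins were listed. Claudins form the strands of tight junctions. Of these, 13 were at 0 in all samples. Of the 8 tested, 5 were higher and 0 lower, with a median of 0.87, beside 9.95% of all genes higher and 19.1% called. *Cldn7* differed by 1.29 and *Cldn15* by 1.01, both at 7 TPM or less, while the abundant *Cldn3* differed by 0.91 (SE 0.17, adjusted p = 0.000825) and *Cldn1* by 0.88. The fifth was *Cldn14*. Of 14 further genes of tight and adherens junctions, 12 were tested. Among them 5 were higher and 1 lower, with a median of 0.46, beside the same shares of all genes. *Cdh1*, which encodes the adhesion molecule E-cadherin, rose from 3 to 19 TPM in livers to 11 to 81 TPM in tumors (2.77, SE 0.22, adjusted p = 1.64e-08). *Marveld2* (0.75), a protein of tricellular contacts, and the scaffold gene *Tjp1* (0.67) were also higher, and the epithelial splicing regulator *Esrp2* was lower (-0.40). Without scaling 2 claudins and 1 junction gene were called higher, beside 670 of all 13309 genes. With tumor 2 also left out, 4 and 5 were, beside 1446 of 13301 genes.

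Among 26 genes of cholangiocytes, 13 were tested. Of these 6 were higher and 0 lower, with a median of 0.84, beside 9.95% of all genes higher and 19.1% called. *Spp1* rose most (4.46, SE 0.44, adjusted p = 3.27e-07), from 5 to 14 TPM in livers to 60 to 716 TPM in tumors. It encodes osteopontin, a secreted protein also made by cells other than cholangiocytes. *Pdzk1ip1* differed by 2.15, *Elf3*, an epithelial transcription factor, by 1.95, and *Bicc1*, an RNA-binding protein, by 1.58. Of the genes that define cholangiocytes most narrowly, *Cftr* and *Sctr* were listed at 0 in all 18 samples, *Muc1* reached 1 TPM and *Anxa13* 2 TPM. *Pkhd1* differed by 0.05 (adjusted p = 0.948).

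**Figure D5:**
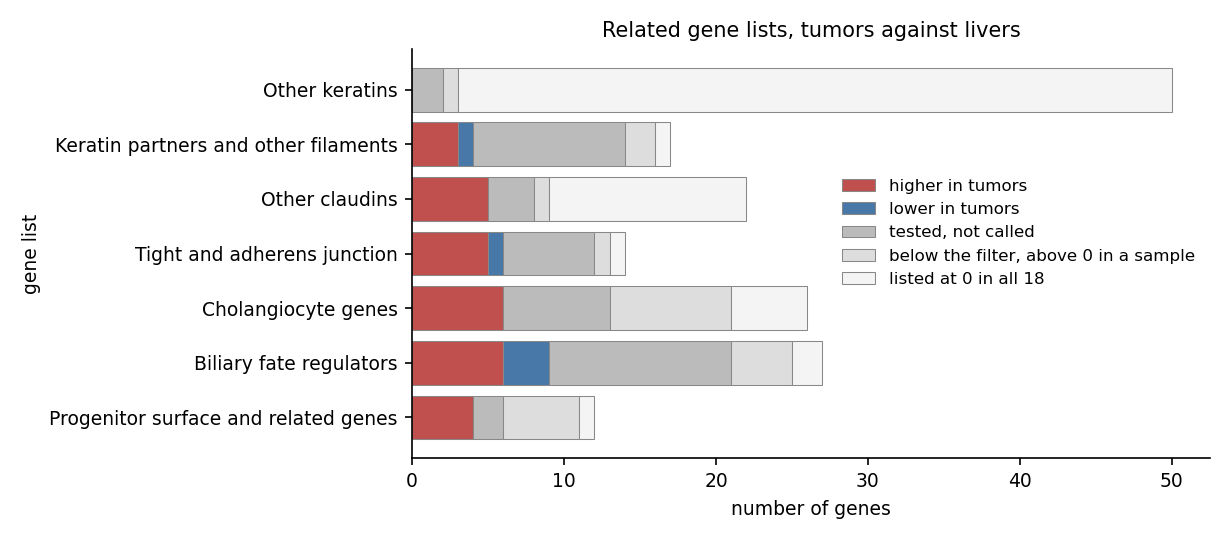
Number of genes (horizontal) in each of 7 lists (vertical), split by the result of the tumor-liver test, with genes below the filter and genes listed at 0 in all 18 samples shown apart. Other keratins and other claudins are mostly at 0, and 5 of the 7 lists hold at least 4 genes higher in tumors.

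Of 27 regulators of biliary fate, 21 were tested, 6 were higher and 3 lower, with a median of 0.11, beside 9.95% of all genes higher and 19.1% called. These counts were 7 and 1 with scaling by the median of ratios, 4 and 1 of 24 tested without scaling, 7 and 4 without tumor 2, and 4 and 3 without liver 1. Over all genes they were 1196 and 983 of 11452 by the median of ratios, and 670 and 671 of 13309 without scaling. Without tumor 2 they were 1649 and 1429 of 11431, and without liver 1 they were 1238 and 1242 of 11352. *Sox4*, a relative of *Sox9* that acts with it in bile ducts, was higher by 2.26 (SE 0.32, adjusted p = 4.34e-05), at 0 to 1 TPM in livers and 1 to 13 TPM in tumors. The receptor gene *Tgfbr2* (1.75), the ligand gene *Bmp4* (1.33) and *Tead4* (1.17), a partner of Yap, were also higher. The lower ones were *Onecut2* (-2.35, adjusted p = 0.000727), *Hhex* (-0.62) and *Foxa1* (-0.53), transcription factors of early liver and bile duct. Of 12 genes of progenitor surfaces, 6 were tested, 4 were higher and 0 lower, with a median of 1.25. These were *Itga6*, an integrin chain (2.91, SE 0.29, adjusted p = 4.06e-07), *Tnfrsf12a* (2.85, adjusted p = 9.87e-06), *Alcam* (1.67) and *Icam1* (0.84). *Lgr5*, *Ncam1*, *Foxl1*, *Kit*, *Thy1* and *Dlk1* were below the filter.

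Markers of other cell types moved with the groups in part. Summed over 8 cholangiocyte markers, livers had 12 to 30 TPM and tumors 64 to 723 TPM, of which *Spp1* made up 60 to 716 TPM in tumors. The 6 mesothelial markers summed to 3 TPM or less in livers and 7 TPM or less in tumors, and the only 1 tested, *Gpm6a*, was higher (1.29, adjusted p = 0.0334 by limma), at 0 in all livers and up to 7 TPM in tumors. Beside the 9.95% of all genes called higher and 19.1% called in either direction, of 6 endothelial markers 2 were higher, of 7 stellate cell and fibroblast markers 3 were higher and 1 lower, and of 4 cycling cell markers 3 were tested and all 3 were higher. Of the macrophage markers 1 of 5 tested was lower, of 3 erythroid markers tested 1 was lower, of 9 hepatocyte markers 1 was higher and 2 were lower, and the only neutrophil marker tested was not called. No B cell, T cell or pancreas marker passed the filter, although *Pnliprp1* of the exocrine pancreas reached 91 TPM in 1 tumor. The part of these cells in the differences of *Krt8*, *Krt18*, *Prom1* and *Cd24a* was not tested. Liver 1, with the highest *Krt8*, *Krt18* and *Prom1* of the livers, also had the highest liver sums of the keratin partners (426 TPM, median 229.5), other claudins (252 TPM, median 129), junction genes (327 TPM, median 238), biliary fate regulators (382 TPM, median 292.5) and progenitor surface genes (144 TPM, median 36.5). The same held for its markers of cholangiocytes (30 TPM, median 15.5), macrophages (93 TPM, median 48), neutrophils (8 TPM, median 1), mesothelial cells (3 TPM, median 0.5) and the exocrine pancreas (3 TPM, median 0.5). Liver 1 had the lowest liver sums of the markers of endothelial cells (28 TPM, median 47.5), stellate cells and fibroblasts (73 TPM, median 82) and erythroid cells (5 TPM, median 47.5). All these sums are of deposited TPM, and 1 TPM of liver 1 became 0.713 on the scaled values, the least of the livers. Sums of scaled values were not compared. The part of any of these cells in the keratin values of liver 1 was not tested.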

How the data were processed

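Poly-A RNA of 6 livers and 12 tumors was sequenced paired end. The authors checked reads with FastQC, aligned them to GRCm38, quantified them with Salmon and normalized to TPM; the submitters' processing notes also name edgeR, with no role given. The deposited values are a whole-number score and were treated as rounded TPM, since 882 of 900 unrounded TPM of a supplementary table lay within 0.5 of them. Counting intervals need reads and are not given.

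Members, lists, motifs and tests were chosen with earlier results of these data known. The table of 28442 genes, of which 12874 were 0 throughout, had 8 lines with an extra separator, read from the right. Samples were grouped by their labels, and columns were matched by name and by the mouse table of the study. Scaling factors came from an unweighted trimmed mean of M values, trimming 30% of M and 5% of A values. The limma test (version 3.58.1, R 4.3.3, trended prior) was run on log2 of the scaled value plus 1. Members and ratios were tested by exact permutation over 18564 assignments, and correlations by 100000 permutations (Python 3.11.15, numpy 2.4.6, scipy 1.17.1, pandas 2.3.3, matplotlib 3.10.9). P-values measure the spread between samples of separate mice, except tumors 11 and 12. On simulated data the fit recovered 157 of 200 changed genes with 8 false calls among 12995 genes tested.

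Named genes are the 9 members, up to 4 genes per list and direction with the largest log2 fold change among those called, and the 3 genes with the highest rho to each member, among genes tested with a tumor median of at least 5 scaled TPM, leaving out symbols made of Gm and a number or ending in Rik. Markers of cell types and genes at 0 were named beside these, and some genes that the rule names are not reported here. Positions and upstream sequences are those of RefSeq on GRCm38.p6. Protein sequences were not used here. Alternatives covered scaling, filter, pseudocount, tag, age, samples and a block by replicate number; added after seeing the data were liver 1 and tumor 2 left out, no scaling without tumor 2, and fits of each tag or block on the genes tested in all 18 samples.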

Additional observations from a re-analysis of the deposited data

Results flagged for a closer look

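Those values of the 9 genes and of the 4 keratin ratios that vary between livers, 11 in all, were searched for a liver far from the other 5, by Dixon's ratio of its gap from the nearest liver to the spread from lowest to highest. Of these 6 passed, where chance flags about 1 in 20, and all 6 were those of liver 1, so they are not independent of each other. *Epcam* and *Cldn4*, at 0 in every liver, could not be searched.

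Liver 1 was the highest liver in *Krt8* (189 TPM, next 86, gap 0.715 of the range), *Krt18* (304 TPM, next 64, gap 0.913), *Krt7* (1 TPM, the others 0, gap 1) and *Prom1* (3 TPM, the others 0, gap 1). It was the lowest liver in the log2 ratio of *Krt8* to *Krt18* (-0.68, next 0.07, gap 0.682) and of type II to type I keratins (-0.68, next 0.07, gap 0.695). For *Krt7* and *Prom1* the size of the gap follows from 5 livers being listed at 0. Groups of 12 were not searched, so tumor 2 was not.

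The macrophage receptor gene *Marco*, named after its values were seen, was at 32 TPM in liver 1 and at 1 to 3 TPM in the other livers.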

How the results depend on the processing

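The direction of *Krt8*, *Krt18*, *Prom1*, *Cd24a* and *Sox9* was kept in each of 21 alternatives run on all or part of the samples (16 for *Cd24a*, which the filter left out of the others) and in each of 18 fits with 1 sample left out. In tumor 2, 1 gene takes most of the TPM, and without it both keratin calls were kept on unscaled values too. Genes at 0 to 6 TPM move in steps of the rounding, and TPM give no depth for them.

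Without scaling, 1341 genes were called in tumors against livers, 2 members among them, 115 between tags, 2 members by exact permutation, and 5 pairs across tumors. The log2 fold change was then 0.70 for *Krt8* and 1.03 for *Krt18*. With the tag as a covariate *Krt8* was at 0.76. The E19 samples alone gave 1346 calls and 2 members (*Krt8* 1.03), or 1408 on the genes tested in all 18. The E20 samples alone gave 399 calls, or 536 on those genes, with 1 member both ways, *Krt8* at 0.58, *Krt18* at 0.80 and *Cd24a* at 0.58. Sample quality weights gave 4527 calls, and leaving out liver 1 and tumor 2 gave 3578.

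Replicate numbers do not pair the samples, since livers and tumors of the same number came from different mice. Deviations of same-numbered livers and tumors had a mean correlation of 0.18 (-0.10 to 0.43), over 0.1 in 3 of 6 pairs. For different numbers the mean was -0.04 (-0.46 to 0.37), over 0.1 in 9 of 30 pairs. This difference was not tested. With the replicate block, livers and tumors 1 to 6 gave 1353 calls, against 1210 for these samples without the block, and 1 member in each, with *Krt8* at 0.66 and *Krt18* at 1.02 in both. On the genes tested in all 18 the block gave 1 member and *Cd24a* at 0.85.

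The log2 ratio of *Krt8* to *Krt18* was -0.23 in the E20 samples and -0.32 with the tumors of 1 mouse averaged, where it no longer passed unadjusted. That of type II to type I was -0.23 and -0.32. *Krt19* to *Krt18* was -1.04 with a pseudocount of 5 and -0.44 in the E20 samples, and *Krt7* to *Krt8* was -1.09 (exact p = 0.0126) without liver 1 and tumor 2.

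With 1 sample left out, calls ranged from 1651 (without liver 2) to 3078 (without tumor 2), and the members called from 2 to 4. Log2 fold changes ranged from 0.76 to 1.09 for *Krt8*, from 1.08 to 1.57 for *Krt18*, from 2.55 to 2.91 for *Prom1*, from 0.98 to 1.23 for *Cd24a* and from 0.32 to 0.59 for *Sox9*. Calls between tags ranged from 760 (without tumor 5; 762 without tumor 9) to 1506. The ratios ranged from -0.48 to -0.26 for *Krt8* to *Krt18* and for type II to type I, from -1.48 to -1.03 for *Krt19* to *Krt18* and from -0.99 to -0.59 for *Krt7* to *Krt8*. Members passing the exact permutation test ranged from 4 to 6, and pairs passing from 1 (without tumor 2) to 3. Beyond the losses named here, the cause of a changed count was not tested.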

Other observations

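*Prom2*, the other prominin gene, was looked up after the values of *Prom1* were seen. It was listed at 0 in all 6 livers, liver 1 included, and was above 0 in all 12 tumors, from 2 to 24 TPM (median 8.5). Its log2 fold change was 3.08 (SE 0.34, adjusted p = 1.51e-06 by limma across all genes).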
